A study of Mus musculus with 12 samples.

Results

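Cone phototransduction genes are the genes whose products turn the absorption of light into an electrical signal in cone photoreceptors. The members were taken by name from the deposited gene count table: Opn1mw, Opn1sw, Gnat2, Gnb3, Gngt2, Pde6c, Pde6h, Cnga3, Cngb3 and Arr3, that is 10 of the 21930 genes listed. All 10 were listed and passed the filter on low counts in each comparison. The study asked whether intermittent fasting alters the damage that sodium iodate (NaIO3), an oxidant that injures the retinal pigment epithelium (RPE), causes in the mouse eye as a model of age-related macular degeneration. RNA-seq was made from 12 libraries in 4 groups, with 3 replicate libraries in each. All mice were wild-type male C57BL/6J animals that were 8 weeks old when the feeding regimen began, and the regimen lasted 12 weeks. AL + PBS mice ate ad libitum and were injected intraperitoneally with phosphate-buffered saline (PBS), while IF + PBS mice were fasted on alternate days and given PBS. AL + NaIO3 and IF + NaIO3 mice followed the same regimens and were injected intraperitoneally with 25 mg/kg NaIO3. Tissue was taken 7 days after the injection. No batch was named, and the methods describe RNA from both eye cups of a mouse for the PCR assays without stating the same for RNA-seq, so p-values are read here as measuring the spread between these libraries.

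Cones mediate daylight and colour vision. An opsin activated by light exchanges nucleotide on the cone transducin, which relieves the inhibition of a cone phosphodiesterase. The phosphodiesterase lowers cyclic GMP, the cyclic nucleotide-gated channel closes and the cell hyperpolarises, and an arrestin then quenches the opsin. Mouse cones are a small minority beside rods, which use a parallel set of proteins. Many mouse cones make both the short-wavelength opsin (Opn1sw) and the medium-wavelength opsin (Opn1mw), in proportions that vary from dorsal to ventral retina.

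The labels name the tissue as a complex of RPE, choroid and sclera, while the protocol names the eye cup. Retinal transcripts were abundant in each library. Levels are given as CPM, a gene's count rescaled to a common library total by the trimmed mean of M values (TMM), unless FPKM is named, which is also divided by the gene's length in kilobases. Gnat1, the α subunit of rod transducin, lay between 3163 and 10890 CPM over the 12 libraries, and the summed level of 10 RPE markers lay between 632 and 2305 CPM. Library totals ranged from 26364665 to 43046950 counts. The AL + NaIO3 group was uneven: its replicate 3 had the lowest Gnat1 of all libraries, and 1217 CPM of summed choroid and sclera stroma markers against 59.8 to 188 CPM in the other 11 libraries. The summed macrophage, monocyte and microglia markers were at 220, 159 and 932 CPM in AL + NaIO3 against 52.9 to 77.4 CPM in the other groups. Of these markers, 11 of 11 were higher in AL + NaIO3 than in AL + PBS, each with an unadjusted p under 0.05. RPE markers summed to 781, 632 and 1385 CPM in AL + NaIO3 and to 720 to 1594 CPM in IF + NaIO3. They summed to 1536 to 1735 CPM in AL + PBS and to 1802 to 2305 CPM in IF + PBS, without overlap. In AL + NaIO3 replicate 3 the marker Pmel alone was at 421.5 CPM, against 12.06 to 51.3 CPM in the other 11 libraries. Tyr and Mlana were also highest in that library. Rpe65 was at 55.18 CPM there, against 103.2 to 142.2 CPM in AL + PBS.

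Coordinates in the deposited table match mouse build GRCm38. Of the members, 4 share their extent with another listed gene, and whether the counting used strand is not given in the sources used here, so their reads may in part belong to the neighbour. The values of 3 neighbours are given here. Opn1sw (chr6:29376671-29388468) overlapped Calu, with 168.9 CPM against 358.8 CPM for Opn1sw. Both others were low: Abi3 had 9.87 CPM beside 63.7 CPM for Gngt2 (chr11:95837216-95845734), and Arhgdib had 4.78 CPM beside 132 CPM for Pde6h (chr6:136923832-136968865). Another 6 members overlapped no listed gene: Gnat2 (chr3:108092789-108101432), Gnb3 (chr6:124834240-124840275), Pde6c (chr19:38132781-38183958), Cnga3 (chr1:37214434-37263384), Cngb3 (chr4:19280850-19510623) and Arr3 (chrX:100605497-100618493). Opn1mw was listed at chrX:74127464-74150760.

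Promoter sequence is shown for Arr3, the member with a call in the contrast of diets averaged over both injections, for Opn1sw, whose ratio to Opn1mw differed between injections, and for Gnat2, whose level followed Opn1sw most closely. Each is the 250 bases before a RefSeq transcription start in GRCm38.p6, written 5′ to 3′ on the strand of the gene. Capitals mark TAATC, the core of the letters bound by the photoreceptor factor CRX, and AGGTCA, a nuclear receptor element, on either strand. The letters TAATCC include TAATC, and TAATC alone was added after the sequences had been seen. The windows are chrX:100605247-100605496 (plus strand) for Arr3, chr6:29380514-29380763 (minus strand) for Opn1sw and chr3:108092816-108093065 (plus strand) for Gnat2.
Arr3: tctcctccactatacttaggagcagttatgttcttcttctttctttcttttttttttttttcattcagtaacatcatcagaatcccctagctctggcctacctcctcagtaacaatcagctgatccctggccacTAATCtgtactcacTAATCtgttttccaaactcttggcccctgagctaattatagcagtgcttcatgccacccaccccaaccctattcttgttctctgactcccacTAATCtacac
Opn1sw: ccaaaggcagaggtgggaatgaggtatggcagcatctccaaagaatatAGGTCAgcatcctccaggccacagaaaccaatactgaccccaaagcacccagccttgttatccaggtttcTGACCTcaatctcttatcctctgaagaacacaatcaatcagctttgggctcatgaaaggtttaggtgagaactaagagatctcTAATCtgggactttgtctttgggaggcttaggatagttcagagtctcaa
Gnat2: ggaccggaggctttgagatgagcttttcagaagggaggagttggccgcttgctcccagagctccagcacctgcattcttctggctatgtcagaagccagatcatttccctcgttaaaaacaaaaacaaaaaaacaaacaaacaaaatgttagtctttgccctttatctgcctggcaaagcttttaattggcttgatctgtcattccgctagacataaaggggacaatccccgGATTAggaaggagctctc

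The Arr3 window held TAATC 3 times, the Opn1sw window held it 1 time together with 2 AGGTCA, and the Gnat2 window held it 1 time, on the opposite strand and within TAATCC. The Opn1mw window held none of these letters. RefSeq promoter entries were used for 6 members with 7 start sites, Cnga3 having 2, and not for Gnb3, Gngt2, Pde6c and Cngb3. TAATCC stood in 1 of the 7 windows, TAATC in 3 and AGGTCA in 1. Over 32851 promoter windows of this length, TAATCC stood in 6.25%, TAATC in 19.8% and AGGTCA in 14.0%. A match describes letters in this window only.

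Per length, the members spanned a wide range. In AL + PBS, Opn1sw (139 ± 18.4 FPKM, SD, n = 3) and Gnb3 (137 ± 18.9 FPKM) led, and their libraries overlapped. Gnat2 (78.2 ± 3.02 FPKM), Arr3 (77.1 ± 17.9 FPKM) and Opn1mw (73.8 ± 4.26 FPKM) followed and also overlapped with their neighbours in the order. Below them, no library of a member overlapped with those of the next: Gngt2 had 62.7 ± 3.56 FPKM, Pde6c 24.8 ± 1.91 FPKM, Pde6h 20.2 ± 0.411 FPKM, Cngb3 5.30 ± 0.751 FPKM and Cnga3 3.18 ± 0.164 FPKM. The channel subunits were the lowest members in each of the 4 groups. The leading member differed: mean FPKM was highest for Opn1sw in AL + PBS, for Gnb3 in IF + PBS (156) and AL + NaIO3 (276 ± 119), and for Arr3 in IF + NaIO3 (133 ± 2.58).

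**Figure D1:**
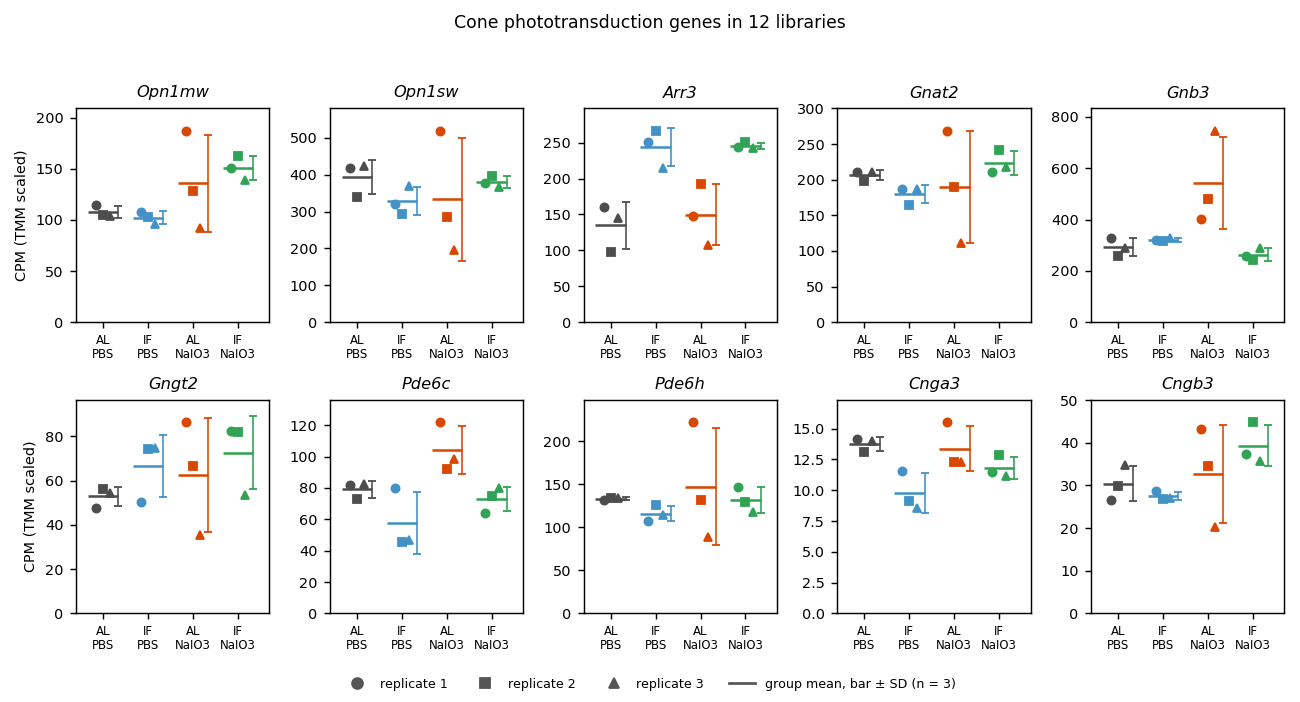
Level of each of the 10 members in CPM (y axis) in the 4 groups (x axis); points are single libraries, marked by replicate number, and the bar gives mean ± SD (n = 3). The AL + NaIO3 libraries spread the most for most members, Arr3 lies higher in the IF groups, and Gnb3 is highest in AL + NaIO3.

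Most members had the same order of libraries within AL + NaIO3. Replicate 1 had the highest level within that group for 8 of the 10 members and replicate 3 the lowest for 8 of the 10. The median ratio of the highest to the lowest library was 2.07 there, against 1.15 in AL + PBS, 1.20 in IF + PBS and 1.19 in IF + NaIO3. The same ratio was 3.19 for 9 rod phototransduction genes in AL + NaIO3, where replicate 1 was highest and replicate 3 lowest for 9 of the 9. Replicate 3 also held the stroma and macrophage markers given above, and their part in the low member levels was not tested. In bulk tissue, fewer cones and less RNA per cone cannot be told apart.

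Opn1sw, the short-wavelength cone opsin, measured 419, 340 and 423 CPM in AL + PBS and 321, 294 and 371 CPM in IF + PBS. It measured 518, 286 and 195 CPM in AL + NaIO3 and 376, 397 and 366 CPM in IF + NaIO3. The AL + NaIO3 libraries thus held both the highest and the lowest value, and each pair of groups overlapped. Opn1sw did not pass the test in any comparison, with a log2 fold change of -0.24 (SE 0.32, edgeR adjusted p = 0.843) in AL + NaIO3 against AL + PBS and of -0.26 (edgeR adjusted p = 0.289) in IF + PBS against AL + PBS.

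Opn1mw, the medium-wavelength cone opsin, measured 115, 105 and 104 CPM in AL + PBS and 108, 103 and 95.7 CPM in IF + PBS. It measured 187, 129 and 92.3 CPM in AL + NaIO3 and 150, 163 and 139 CPM in IF + NaIO3. Each IF + NaIO3 library lay above each IF + PBS library, and the AL groups overlapped through AL + NaIO3 replicate 3. The log2 fold change was 0.56 (SE 0.10, unadjusted p = 0.000173) in IF + NaIO3 against IF + PBS, which did not pass edgeR's adjustment over all genes (adjusted p = 0.211). DESeq2 gave an adjusted p of 0.000169 with a fold under the 1.5 used for calls. In AL + NaIO3 against AL + PBS the log2 fold change was 0.34 (SE 0.23, adjusted p = 0.655), and 0.55 without AL + NaIO3 replicate 3 (unadjusted p = 0.00689, edgeR adjusted p = 0.216).

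The ratio of the opsins separated the injections. Opn1sw CPM divided by Opn1mw CPM was 3.66, 3.24 and 4.08 in AL + PBS and 2.96, 2.87 and 3.87 in IF + PBS. It was 2.77, 2.22 and 2.11 in AL + NaIO3 and 2.50, 2.45 and 2.63 in IF + NaIO3. Each of the 6 NaIO3 libraries lay below each of the 6 PBS libraries, with means of 2.45 ± 0.25 and 3.45 ± 0.50 (SD, n = 6 each). Being a ratio within a library it does not depend on library scaling, and AL + NaIO3 replicate 3, at 2.11, lay next to replicate 2 at 2.22. The ratio was singled out after its values had been seen and is given with no test. Ratios between other members were not computed, so the separation is not shown to be particular to the opsins. The limit from genes that share their extent applies to both opsins.

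**Figure D2:**
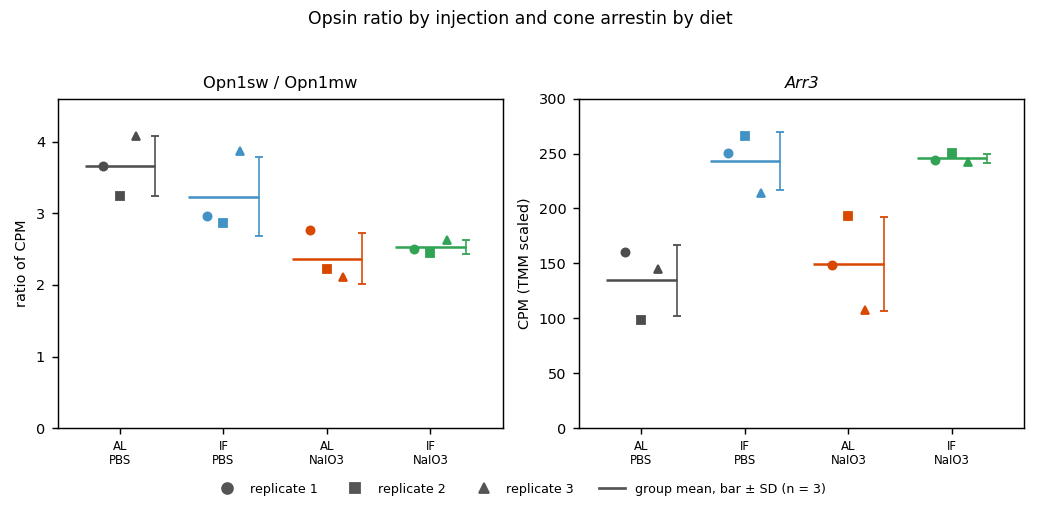
Left, Opn1sw CPM divided by Opn1mw CPM, and right, Arr3 in CPM (y axes), in the 4 groups (x axes), with points for single libraries and bars for mean ± SD (n = 3). The 6 NaIO3 libraries sit between 2.11 and 2.77 in the opsin ratio, below the PBS libraries, and Arr3 sits between 214.5 and 265.8 CPM in the 6 IF libraries.

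Gnat2, the α subunit of cone transducin, measured 211, 199 and 211 CPM in AL + PBS and 187, 165 and 187 CPM in IF + PBS. It measured 268, 190 and 112 CPM in AL + NaIO3 and 210, 242 and 218 CPM in IF + NaIO3. IF + PBS lay below AL + PBS without overlap (log2 fold change -0.20, unadjusted p = 0.0452) and IF + NaIO3 lay above IF + PBS without overlap (log2 fold change 0.32, SE 0.10, edgeR adjusted p = 0.224), and neither passed the test. Over the 12 libraries Gnat2 and Opn1sw had the closest levels in pattern (Pearson r = 0.94 on log2 CPM, a description over libraries that share the depth and tissue makeup of each sample).

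Gnb3, the β subunit of cone transducin that ON bipolar cells also use, had the largest difference of the members. It measured 328, 257 and 290 CPM in AL + PBS and 319, 315 and 329 CPM in IF + PBS. It measured 402, 481 and 744 CPM in AL + NaIO3 and 259, 241 and 291 CPM in IF + NaIO3. Each AL + NaIO3 library lay above each library of the other groups, and each IF + NaIO3 library lay below each IF + PBS library.

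The log2 fold change of Gnb3 was 0.90 (SE 0.24) in AL + NaIO3 against AL + PBS, with an unadjusted p of 0.0058 that did not pass edgeR's adjustment (adjusted p = 0.284). DESeq2 called it (adjusted p = 0.0119), and so did edgeR when the 12 libraries were fitted together. In IF + NaIO3 against AL + NaIO3 it was -1.05 (SE 0.24, edgeR adjusted p = 0.208, DESeq2 adjusted p = 0.0010). The NaIO3 difference in IF minus that in AL was -1.17 (SE 0.26, unadjusted p = 0.000663), with an adjusted p of 0.182 by edgeR and 0.00354 by DESeq2. Without AL + NaIO3 replicate 3 the values were 0.60, -0.75 and -0.89, in the same order of comparisons, with edgeR adjusted p-values of 0.157, 0.0721 and 0.0624. Without AL + NaIO3 replicate 1 the interaction was -1.36 and passed edgeR's test (adjusted p = 0.024).

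The summed level of 9 bipolar cell markers was given beside Gnb3, since these cells share the gene. It was 991, 1407 and 1597 CPM in AL + NaIO3, in the same order as Gnb3, and lay between 1193 and 1492 CPM in the other 9 libraries. AL + NaIO3 replicate 1 therefore had the lowest bipolar sum of all libraries while its Gnb3 lay above all 9 libraries of the other groups. All 9 bipolar markers were detected, and 4 were higher and 5 lower in AL + NaIO3 against AL + PBS. The sum of 4 rod markers lay within 6892 to 20880 CPM in AL + NaIO3, with the lowest value in the library that had the highest Gnb3. The summed macrophage markers were also higher, and the summed RPE markers lower, in the AL + NaIO3 libraries than in AL + PBS, as given above. Of the 10 RPE markers, 6 were lower and 4 (Best1, Tyr, Mlana and Pmel) higher. The part of any of these cell types in the Gnb3 difference was not tested.

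**Figure D3:**
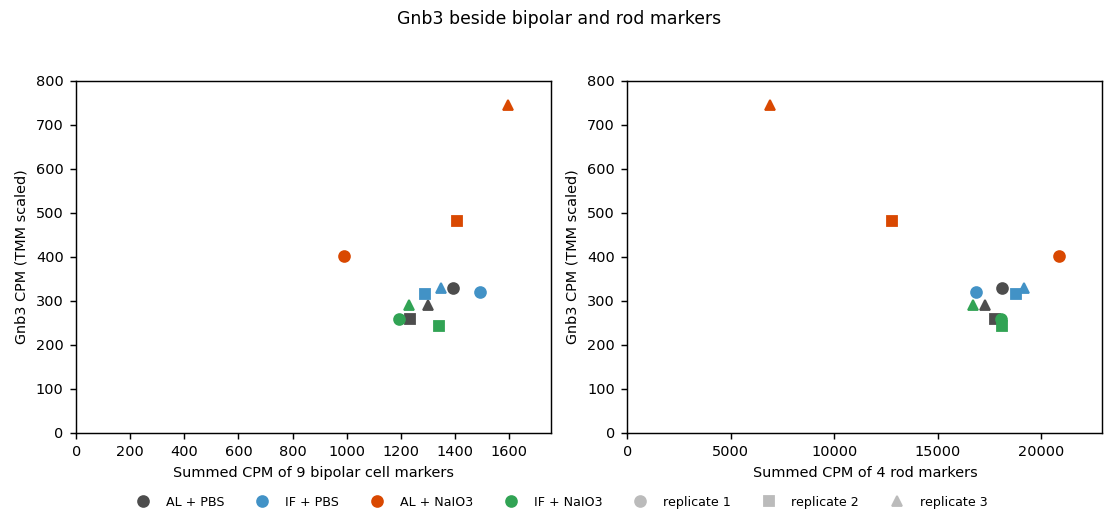
Gnb3 in CPM (y axes) against the summed CPM of 9 bipolar cell markers (left x axis) and of 4 rod markers (right x axis), 1 point for each of the 12 libraries, coloured by group. The 3 AL + NaIO3 libraries lie above the other 9 in Gnb3, at bipolar sums from 991 to 1597 CPM.

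Gngt2, the γ subunit of cone transducin, which blood monocytes also express, measured 47.8, 56.3 and 54.4 CPM in AL + PBS and 50.5, 74.4 and 74.8 CPM in IF + PBS. It measured 86.3, 66.4 and 35.3 CPM in AL + NaIO3 and 82.4, 81.9 and 53.6 CPM in IF + NaIO3. The groups overlapped in all 4 pairwise comparisons. The AL + NaIO3 libraries, which had the highest macrophage, monocyte and microglia sums, held both the highest and the lowest Gngt2 level, and the part of these cells in Gngt2 was not tested. No comparison passed the test. The log2 fold change was 0.25 (SE 0.28, edgeR adjusted p = 0.805) in AL + NaIO3 against AL + PBS. Without AL + NaIO3 replicate 3 it was 0.53 (unadjusted p = 0.00426, edgeR adjusted p = 0.184). In IF + PBS against AL + PBS it was 0.33, and 0.25 to 0.50 on leaving out 1 library. Gngt2 was called there in 0 of 12 settings.

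Pde6c, the catalytic subunit of cone phosphodiesterase, measured 81.7, 73.0 and 82.5 CPM in AL + PBS and 80.2, 45.3 and 46.9 CPM in IF + PBS. It measured 122, 92.2 and 98.6 CPM in AL + NaIO3 and 64.2, 74.6 and 79.7 CPM in IF + NaIO3. AL + NaIO3 lay above AL + PBS and above IF + NaIO3 without overlap, and AL + NaIO3 replicate 3 was not its lowest library. The log2 fold change was 0.40 (SE 0.14, edgeR adjusted p = 0.362) in AL + NaIO3 against AL + PBS and -0.52 (SE 0.14, edgeR adjusted p = 0.267) in IF + NaIO3 against AL + NaIO3.

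IF + PBS replicate 1 stood apart from the other IF + PBS libraries in Pde6c. Without it, Pde6c was called in IF + PBS against AL + PBS, at a log2 fold change of -0.78 (edgeR adjusted p = 0.00774), and in IF + NaIO3 against IF + PBS, at 0.66 (edgeR adjusted p = 0.0323). With all libraries these values were -0.46 and 0.34, and neither passed.

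Pde6h, the inhibitory subunit of that enzyme, measured 131, 134 and 134 CPM in AL + PBS and 108, 125 and 115 CPM in IF + PBS. It measured 222, 132 and 88.4 CPM in AL + NaIO3 and 147, 130 and 117 CPM in IF + NaIO3. IF + PBS lay below AL + PBS without overlap (log2 fold change -0.20, unadjusted p = 0.0486), a difference that did not pass edgeR's adjustment. In AL + NaIO3 against AL + PBS the log2 fold change was 0.15 (SE 0.29, edgeR adjusted p = 0.903).

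Cnga3, the principal subunit of the cone channel, was the lowest member. It measured 14.2, 13.1 and 14.0 CPM in AL + PBS and 11.6, 9.15 and 8.52 CPM in IF + PBS. It measured 15.5, 12.3 and 12.3 CPM in AL + NaIO3 and 11.5, 12.8 and 11.2 CPM in IF + NaIO3. IF + PBS lay below AL + PBS without overlap, at a log2 fold change of -0.49 (SE 0.16, edgeR adjusted p = 0.202, DESeq2 adjusted p = 0.0952). Without IF + PBS replicate 1 it was -0.64 and called (edgeR adjusted p = 0.0285).

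Cngb3, the modulatory subunit of the cone channel, measured 26.6, 29.9 and 34.9 CPM in AL + PBS and 28.7, 26.9 and 27.0 CPM in IF + PBS. It measured 43.2, 34.5 and 20.3 CPM in AL + NaIO3 and 37.4, 44.8 and 35.7 CPM in IF + NaIO3. IF + NaIO3 lay above IF + PBS without overlap, at a log2 fold change of 0.51 (SE 0.11, unadjusted p = 0.0010), which did not pass edgeR's adjustment (adjusted p = 0.211). DESeq2 gave an adjusted p of 0.0147 with a fold under 1.5. Cngb3 followed Opn1mw over the 12 libraries (Pearson r = 0.88), while Cnga3 followed Pde6c (r = 0.86).

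Arr3, cone arrestin, differed between diets. It measured 161, 98.3 and 145 CPM in AL + PBS and 250, 266 and 215 CPM in IF + PBS. It measured 148, 193 and 107 CPM in AL + NaIO3 and 244, 250 and 242 CPM in IF + NaIO3. Each of the 6 IF libraries lay above each of the 6 AL libraries, and the IF + NaIO3 libraries spanned only 242 to 250 CPM. Over the 12 libraries its Pearson r was positive with 5 of the 9 other members, from 0.17 with Opn1sw to 0.50 with Gngt2, and negative with 4, the lowest being -0.54 with Cnga3 and -0.49 with Pde6c.

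Summed markers of other cells and tissues also lay apart between the diets after PBS. Skeletal muscle markers summed to 196, 89.1 and 147.5 CPM in AL + PBS and to 13.9, 62.5 and 50.6 CPM in IF + PBS, with 4 of 4 lower (median log2 fold change -1.84). They lay between 57.9 and 176 CPM in AL + NaIO3 and between 38.9 and 158 CPM in IF + NaIO3. Stroma markers were lower in IF + PBS for 5 of 6 (median -0.87). RPE markers, as given above, were higher in sum in IF + PBS, with 5 of 10 higher and 5 lower. Müller cell and astrocyte markers summed to 3366, 3806 and 3435 CPM in AL + PBS and to 3087, 3120 and 3023 CPM in IF + PBS, without overlap, and 5 of 5 were lower (median -0.24). Lens markers summed to 200.3 CPM in AL + PBS replicate 2, the library with the lowest Arr3, against at most 4.91 CPM elsewhere. After NaIO3, macrophage markers were lower in IF than in AL for 11 of 11 (median -2.48). Stroma markers were lower there for 6 of 6 (median -2.01) and skeletal muscle markers for 4 of 4 (median -0.57). Rod markers were higher for 4 of 4 (median 0.43). The part of these cells and tissues in the Arr3 difference was not tested.

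The log2 fold change of Arr3 was 0.86 (SE 0.16) in IF + PBS against AL + PBS, with an unadjusted p of 0.000364 that did not pass edgeR's adjustment (adjusted p = 0.159), while DESeq2 called it (adjusted p = 7.50e-05). It was 0.68 (edgeR adjusted p = 0.423) without AL + PBS replicate 2 and 0.84, called by edgeR (adjusted p = 0.0208), without IF + PBS replicate 1. In IF + NaIO3 against AL + NaIO3 it was 0.71 (SE 0.21, edgeR adjusted p = 0.292, DESeq2 adjusted p = 0.0400), and 0.52 (edgeR adjusted p = 0.237) without AL + NaIO3 replicate 3. The contrast of IF with AL averaged over both injections was added after these values had been seen. There Arr3 rose by 0.79 (SE 0.15, edgeR adjusted p = 0.0498), and DESeq2 called it as well (adjusted p = 4.46e-05). The edgeR call was lost with a replicate block (log2 fold change 0.79, adjusted p = 0.0779). It was also lost in 8 of the 12 fits that left out 1 library, at adjusted p-values of up to 0.133. Among these 8 the log2 fold change was 0.69 (adjusted p = 0.107) without AL + PBS replicate 2 and 0.75 to 0.83 in the others. The call held without AL + PBS replicate 1 or any of the AL + NaIO3 libraries. Without AL + NaIO3 replicate 3 the log2 fold change was 0.69 (adjusted p = 0.0248). NaIO3 against PBS in IF gave Arr3 a log2 fold change of 0.01.

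**Figure D4:**
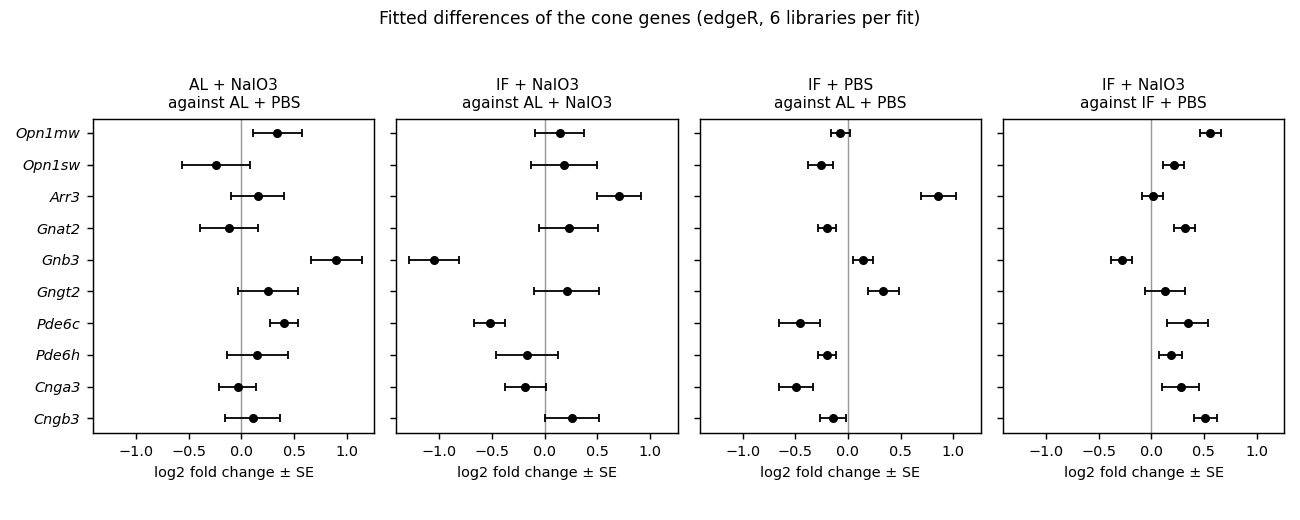
Log2 fold change of each of the 10 members (y axis, genes) in the 4 pairwise comparisons, as edgeR estimates with bars of ± 1 SE. Gnb3 lies at 0.90 in AL + NaIO3 against AL + PBS and at -1.05 in IF + NaIO3 against AL + NaIO3, and Arr3 lies at 0.86 and 0.71 in both diet comparisons.

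The question for NaIO3 under ad libitum feeding was whether cone transcripts differed from those after PBS. In AL + NaIO3 against AL + PBS, 7 members were higher and 3 lower, with a median log2 fold change of 0.15 against 0.01 over all genes tested. Without AL + NaIO3 replicate 3, the 10 members were all higher, with a median of 0.38, none called and 4 at an unadjusted p under 0.05, against 12.2% of genes in that fit. Without AL + NaIO3 replicate 1, 4 were higher and 6 lower, with a median of -0.11, so the majority direction depended on which library was left out. With all libraries, edgeR called none of the members, against 0.0769% of 15612 genes. At an unadjusted p under 0.05 stood 2 members, Gnb3 and Pde6c, against 10.2% of genes, and the same 2 had groups that did not overlap, against 18.1%. DESeq2 called 1, Gnb3, against 2.63%, and edgeR on the 12 libraries together called 1, Gnb3, against 1.11%.

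The comparison of IF + NaIO3 with AL + NaIO3 had 6 members higher and 4 lower, with a median log2 fold change of 0.16 against -0.01 over all genes. Without AL + NaIO3 replicate 3 these counts turned to 2 higher and 8 lower, with a median of -0.09, so the majority direction rested on that library. Leaving out replicate 1 of that group, they were 7 higher and 3 lower, with a median of 0.48 and 6 members at an unadjusted p under 0.05, against 22% of genes in that fit. EdgeR called none of the members, against 0.0383% of genes. An unadjusted p under 0.05 was reached by 3 members, Arr3, Gnb3 and Pde6c, against 11.7% of genes, and these 3 also did not overlap between groups, against 18.9%. DESeq2 called 2, Arr3 and Gnb3, against 3.05%, and edgeR on the 12 libraries called 1, Gnb3, against 1.19%. Both NaIO3 comparisons share the AL + NaIO3 libraries.

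In IF + PBS against AL + PBS, 3 members were higher and 7 lower, with a median log2 fold change of -0.17 against 0.01. EdgeR called none of the members and 0% of all genes, in the pairwise fit and on the 12 libraries together (0%). An unadjusted p under 0.05 was reached by 7 members, against 17.1% of genes. This count was 4 with upper quartile scaling, against 17.1% of genes, and 3 in the joint fit, against 9.52%. Leaving out 1 library gave from 2 members without AL + PBS replicate 3, against 9.33% of genes, to 5 without IF + PBS replicate 1, against 29.6%. In the last of these fits edgeR called 3 members (Arr3, Pde6c and Cnga3), against 3.03% of genes. With all libraries, Arr3 and Gngt2 of the 7 were higher and Opn1sw, Gnat2, Pde6c, Pde6h and Cnga3 lower in IF + PBS. Groups did not overlap for 4 members (Arr3, Gnat2, Pde6h and Cnga3), against 21.9%, and DESeq2 called 1, Arr3, against 1.25%.

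The comparison of IF + NaIO3 with IF + PBS had 9 members higher and 1, Gnb3, lower (log2 fold change -0.28, SE 0.10, edgeR adjusted p = 0.244), with a median of 0.25 against 0.00 over all genes. Among the marker lists, RPE markers were lower for 10 of 10 (median -0.76). Skeletal muscle markers were higher for 4 of 4 (median 0.89) and stroma markers for 5 of 6 (median 0.40). The part of these tissues in the member differences was not tested. EdgeR called none of the members and 0% of all genes, and likewise 0% on the 12 libraries together. An unadjusted p under 0.05 was reached by 4 members, Opn1mw, Gnat2, Gnb3 and Cngb3, against 15.2% of genes. The same 4 did not overlap between groups, against 20.9%, and DESeq2 called none of the members, against 0.470% of genes. Without IF + PBS replicate 1, Opn1mw (0.61) and Pde6c (0.66) were called by edgeR at an adjusted p of 0.0323 each, against 1.27% of genes in that fit, and 6 members had an unadjusted p under 0.05, against 24%.

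The interaction of diet and injection was positive for 6 members and negative for 4, with a median of 0.13. The counts were 5 and 5 (median -0.05) without AL + NaIO3 replicate 3. Leaving out replicate 1 of that group, they were 8 and 2 (median 0.44), with 6 members at an unadjusted p under 0.05, against 22.5% of genes in that fit, and Gnb3 called, against 2.26%. EdgeR called none of the members, against 0.0313% of 15970 genes. An unadjusted p under 0.05 was reached by 1 member, Gnb3, against 12% of genes, and DESeq2 called the same member, against 1.36%. For the diet averaged over both injections edgeR called 1 member, Arr3, against 0.225% of genes. There 4 members (Arr3, Gnb3, Pde6c and Cnga3) had an unadjusted p under 0.05, against 16.1%, and 1, Arr3, did not overlap between the 6 IF and the 6 AL libraries, against 1.11%. DESeq2 also called 1, against 2.45%. Without IF + PBS replicate 1, edgeR called Pde6c there in place of Arr3, against 0.0862% of genes, at a log2 fold change of -0.65 (edgeR adjusted p = 0.0287) against -0.48 with all libraries.

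The injection averaged over both diets was likewise added after the values had been seen. In it 9 members were higher and 1 lower with NaIO3, with a median log2 fold change of 0.17. Leaving out AL + NaIO3 replicate 1 gave 7 higher and 3 lower (median 0.07). Leaving out replicate 3 of that group gave 10 higher (median 0.27), with 6 members at an unadjusted p under 0.05, against 15.9% of genes in that fit. With all libraries, edgeR called none of the members, against 0.106% of genes, and DESeq2 called none, against 1.48%. An unadjusted p under 0.05 was reached by 3 members (Opn1mw, Gnb3 and Pde6c), against 12.8%, and 0 members separated the 6 NaIO3 from the 6 PBS libraries, against 0.614%. Opn1mw had a log2 fold change of 0.44 (SE 0.13, edgeR adjusted p = 0.213), and 0.56 (edgeR adjusted p = 0.0187, under 1.5 fold) without AL + NaIO3 replicate 3.

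Rod counterparts were compared to see whether cone and rod transcripts kept their proportion. The 10 members summed to 2011, 1616 and 1505 CPM in AL + NaIO3 and to between 1306 and 1638 CPM in the other 9 libraries. The 9 rod genes compared (Sag, Gnat1, Gnb1, Gngt1, Pde6a, Pde6b, Pde6g, Cnga1 and Cngb1) summed to 33670, 20290 and 10980 CPM in AL + NaIO3 and to between 27430 and 31190 CPM elsewhere. The cone sums of AL + NaIO3 thus lay within or above the range of the other libraries, while 2 of its 3 rod sums lay below that range. Without Gnb3 the cone sums were 1609, 1135 and 760.8 CPM in AL + NaIO3 and 1049 to 1396 CPM in the other 9 libraries, so that replicate 3 then lay below them.

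The log2 ratio of summed cone to summed rod CPM was -4.07, -3.65 and -2.87 in AL + NaIO3. In the other 9 libraries it lay between -4.50 and -4.17, so that each AL + NaIO3 library stood above them. Group means were -4.35 ± 0.13 in AL + PBS, -4.32 ± 0.08 in IF + PBS, -3.53 ± 0.61 in AL + NaIO3 and -4.22 ± 0.04 in IF + NaIO3 (SD, n = 3). Gnb3 made up 19.97%, 29.8% and 49.4% of the cone sum in AL + NaIO3, against 14.7% to 22.4% elsewhere. Without Gnb3 the log2 ratio still lay at -4.39 to -3.85 in AL + NaIO3 and at -4.82 to -4.47 in the other 9 libraries. These ratios are descriptions with no test.

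**Figure D5:**
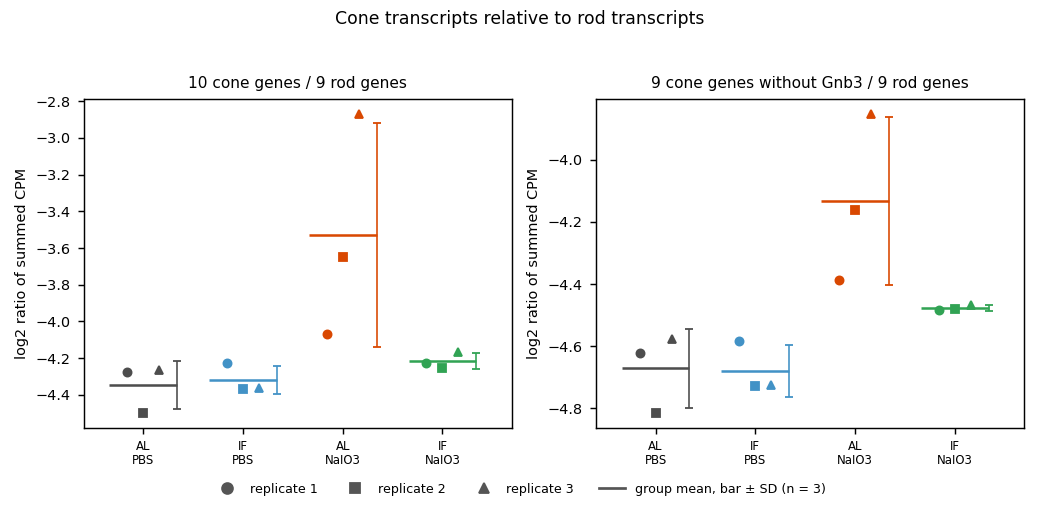
Log2 ratio of summed cone to summed rod CPM (y axes) in the 4 groups (x axes), with all 10 members (left) and without Gnb3 (right); points are libraries and bars mean ± SD (n = 3). The AL + NaIO3 libraries lie above the other 9 libraries in each panel.

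By single pairs, the log2 ratio of member to rod counterpart was higher in AL + NaIO3 than in AL + PBS for 9 of 9. The median difference was 0.74, and 6 of the 9 did not overlap between the groups. Of single genes, 18.1% did not overlap in this comparison, and no such share was computed for pairs of genes. Pde6c stood in 2 of the pairs, over Pde6a and over Pde6b. There were 7 pairs higher and 2 lower, Arr3 over Sag and Cnga3 over Cnga1, without AL + NaIO3 replicate 3 (median 0.60), and 8 higher and 1 lower, Arr3 over Sag, without replicate 2. The opsins were not among these pairs. The difference was 0.63 for Gnat2 over Gnat1, 1.19 for Pde6c over Pde6b, 1.54 for Gnb3 over Gnb1 and 0.03 for Arr3 over Sag, the arrestins. Of the 9 pairs, 8 were lower in IF + NaIO3 than in AL + NaIO3, with a median difference of -0.89, and Arr3 over Sag was higher by 0.41. These counts were again 8 and 1 without AL + NaIO3 replicate 3, with a median of -0.58. The PBS and IF comparisons were mixed, with 3 pairs higher and 6 lower in IF + PBS against AL + PBS (median -0.16) and 6 higher and 3 lower in IF + NaIO3 against IF + PBS (median 0.22). The rod genes themselves did not pass the test in AL + NaIO3 against AL + PBS. Of these 9, 8 were lower and 1, Sag, higher (0.23), none was called by edgeR or had an unadjusted p under 0.05, and the median log2 fold change was -0.56, with -0.68 for Gnat1 (SE 0.41, edgeR adjusted p = 0.614). There were 6 lower and 3 higher (median -0.24) without AL + NaIO3 replicate 3, and without replicate 1 of that group 9 were lower (median -0.98), 7 of them at an unadjusted p under 0.05, against 18.7% of genes in that fit.

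Other genes listed with the cone pathway, most of them also used by rods, were mostly lower in AL + NaIO3. Their levels were not separated by cell type. Of 17 such genes (the receptor kinase Grk1, guanylate cyclases and their activators, the Rgs9 complex, an exchanger, phosducin and retinoid enzymes), neither edgeR nor DESeq2 called any in a comparison with all libraries. Leaving out 1 library gave edgeR up to 3 calls among them, those 3 in IF + PBS against AL + PBS without IF + PBS replicate 1, against 3.03% of genes in that fit. In AL + NaIO3 against AL + PBS 16 were lower and 1 higher, with a median log2 fold change of -0.43. Leaving out AL + NaIO3 replicate 3, 15 were lower and 2 higher (median -0.24), and without replicate 1 of that group the median was -0.79 and 13 had an unadjusted p under 0.05, against 18.7% of genes in that fit. With all libraries 3 stood at an unadjusted p under 0.05, all lower, against 10.2% of genes. These by edgeR were Rgs9, which speeds transducin shutoff (-0.38, edgeR adjusted p = 0.357), the guanylate cyclase Gucy2f (-0.66, adjusted p = 0.461) and Rgs9bp, the anchor of Rgs9 (-0.79, adjusted p = 0.475). Between IF + NaIO3 and AL + NaIO3, 16 were higher in the former, with a median of 0.39 and none at an unadjusted p under 0.05. The median was 0.15, with 13 higher and 4 lower, without AL + NaIO3 replicate 3, and 0.63 without replicate 1, where 12 had an unadjusted p under 0.05, against 22% of genes in that fit. With all libraries, the smallest p-values in this comparison were those of Pdc, phosducin (0.94), Rgs9bp (0.66) and the lipid transporter Abca4 (0.57).

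Of these 17 genes, 11 were higher and 6 lower in IF + NaIO3 against IF + PBS. The 3 with the smallest p-values there had log2 fold changes of 0.42 for Pdc, 0.22 for Slc24a2, the cation exchanger, and -0.33 for Rcvrn, recoverin. In IF + PBS against AL + PBS 5 were higher and 12 lower, with a median of -0.16. There 9 had an unadjusted p under 0.05, 8 lower and 1 higher, against 17.1% of genes. Among the 8 were Rgs9 (-0.87, edgeR adjusted p = 0.211), Gucy2f (-0.97, edgeR adjusted p = 0.194) and Rgs9bp (-0.37, edgeR adjusted p = 0.237). Leaving out 1 library gave 3 to 12 such genes. The 12 stood without IF + PBS replicate 1, against 29.6% of genes in that fit, and the 3 without IF + PBS replicate 3, against 10.4%. Of 8 genes of cone specification and other cone genes, 8 were lower in AL + NaIO3 against AL + PBS (median -0.19), 7 were higher in IF + NaIO3 against AL + NaIO3 (median 0.35). Leaving out AL + NaIO3 replicate 3, these were 5 lower (median -0.03) and 6 higher (median 0.15). Leaving out replicate 1, they were 8 lower (median -0.42) and 7 higher (median 0.54), the latter with 6 at an unadjusted p under 0.05, against 22% of genes in that fit. EdgeR called none of the 8 with all libraries in either comparison, while DESeq2 called 1, Rorb, in both and in the interaction, against 2.63%, 3.05% and 1.36% of genes.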

How the data were processed

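RNA was prepared by the authors with TRIzol from eye cups, with a poly-A selected, strand-specific library kit per the labels and methods. The submitters' processing notes name HISAT2, StringTie, DESeq2 and edgeR with GRCm39, without versions. File coordinates, however, matched RefSeq GRCm38.p6 for 99.5% of genes. The deposited values used were whole-number read counts per gene and FPKM, which the authors normalized for library size and gene length. A deposited table of the authors' comparison, with fold changes and p-values, was not used.

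Counts of 21930 genes (3003 at 0 throughout, 36 symbols listed more than once, where the entry with more reads was kept) were fitted by edgeR 4.0.16 (R 4.3.3) quasi-likelihood tests on the 6 libraries of each pair of groups, with TMM scaling, filterByExpr and Benjamini-Hochberg adjustment over all genes tested. Calls needed an adjusted p below 0.05 together with a fold change of 1.5 or more, and for the interaction, on 12 libraries, the adjusted p alone. SEs are log2 fold change divided by the square root of F. Alternatives were DESeq2 1.42.0, a replicate block, upper quartile scaling, other filters, a joint fit and leaving out each library. The fits were tested on simulated counts. Genes named with values were the members, their rod counterparts, the 3 other cone-pathway genes with the smallest p in each NaIO3 comparison and the 5 genes most alike. Values were also given for 3 neighbours that overlap members and for the RPE markers Pmel and Rpe65. Rorb was named after its values had been seen. Members and lists were chosen with earlier results of these data known. No 2 libraries of a group agreed within sampling noise. Some genes of the lists and 1 neighbour of a member are not reported here and were left out of sums and counts over the lists. Depth ranged from 26364665 to 43046950 counts.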

Additional observations from a re-analysis of the deposited data

Results flagged for a closer look

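Gnb3 had opposite directions under NaIO3 in the diets. Each AL + NaIO3 library lay above each AL + PBS library and each IF + NaIO3 library below each IF + PBS library. The difference between the diets was -1.17 on the log2 scale, which did not pass edgeR's adjustment (adjusted p = 0.182) and passed that of DESeq2 (adjusted p = 0.00354). It was -0.89 without AL + NaIO3 replicate 3.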

How the results depend on the processing

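Counts of called genes depended on the tool and on single libraries. In AL + NaIO3 against AL + PBS edgeR called 12 genes, DESeq2 411, the fit with no filter 19 and the joint fit of 12 libraries 177. In IF + NaIO3 against AL + NaIO3 these counts were 6, 478, 16 and 190. In IF + PBS against AL + PBS edgeR called 0 and DESeq2 192, and in IF + NaIO3 against IF + PBS edgeR called 0, DESeq2 72 and the fit with no filter 2. The interaction had 5, DESeq2 217 and no filter 13. The averaged diet contrast had 36 and with DESeq2 391, and the averaged injection contrast 17 and 237. Pde6h had an interaction of -0.016 with upper quartile scaling against 0.04. The cause was not tested.

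Same-numbered libraries did not deviate together over the genes that passed the filter (correlations from -0.183 to 0.187). With 3 libraries in each group, this cannot exclude that same-numbered libraries shared a handling step. With a replicate block, called genes were 28 in AL + NaIO3 against AL + PBS, 28 in IF + NaIO3 against AL + NaIO3, 5 in IF + PBS against AL + PBS, 8 for the interaction and 10 for the averaged injection contrast. Under the block the Pde6c interaction was 0.00054 against -0.05, and Arr3 in the averaged diet contrast had an edgeR adjusted p of 0.0779.

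Leaving out each library in turn gave 0 to 90 called genes in AL + NaIO3 against AL + PBS, 0 to 75 in IF + NaIO3 against AL + NaIO3, 1 to 472 in IF + PBS against AL + PBS, 0 to 197 in IF + NaIO3 against IF + PBS, 3 to 366 for the interaction, 6 to 203 for the averaged diet contrast and 6 to 89 for the averaged injection contrast. IF + PBS replicate 1 gave 472 and 197, AL + NaIO3 replicate 3 gave 90, 75 and 89, and AL + NaIO3 replicate 1 gave 366. The median of the members in the interaction ranged from -0.047 to 0.44. In AL + NaIO3 against AL + PBS the log2 fold changes ranged from -0.070 to 0.34 for Arr3, -0.057 to 0.53 for Gngt2, -0.28 to 0.41 for Pde6h, -0.15 to 0.35 for Cngb3, -0.16 to 0.019 for Cnga3, -0.71 to 0.027 for Opn1sw and -0.46 to 0.15 for Gnat2. In IF + NaIO3 against AL + NaIO3 they ranged from -0.44 to 0.26 for Pde6h, -0.077 to 0.45 for Opn1mw, -0.091 to 0.66 for Opn1sw, -0.046 to 0.57 for Gnat2 and -0.081 to 0.52 for Gngt2. In IF + NaIO3 against IF + PBS they ranged from -0.035 to 0.30 for Gngt2 and -0.070 to 0.080 for Arr3. In the interaction they ranged from -0.34 to 0.083 for Arr3, -0.20 to 0.26 for Pde6c, -0.23 to 0.45 for Pde6h and -0.41 to 0.18 for Gngt2.

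With the deposited FPKM, the mean log2 ratio of summed cone to summed rod level was -4.14 in AL + PBS, -4.05 in IF + PBS, -3.29 in AL + NaIO3 and -3.95 in IF + NaIO3, since FPKM divides by gene length. With no scaling factor the mean summed cone level in IF + NaIO3 was 1531 CPM against 1591. With 3 libraries in a group, differences of the size seen for most members did not pass the edgeR test. Outside the leave-one-out fits, 56 of 78 alternative values that answer a comparison were rated the same as in the main fit. The other 22 were counts of called genes, cone levels or cone to rod ratios that moved in size, and 0 reversed. Of 304 alternative values of single members, 294 kept their side of the threshold and their direction. Of the other 10, 7 became stronger, 1 weaker and 2 reversed.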

Other observations

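The genes outside the list whose levels over the 12 libraries were most like the mean of the standardised members were Fignl1 (Pearson r = 0.93), Cenpe (0.93), Hspa14 (0.92), Zfp943 (0.92) and Memo1 (0.91). These are descriptions over 12 libraries that share depth and tissue makeup. Among the cone specification genes, Rorb, a nuclear receptor named after its values had been seen, measured -0.77 on the log2 scale for AL + NaIO3 against AL + PBS (adjusted p = 0.262 by edgeR and 0.00799 by DESeq2) and 0.76 for IF + NaIO3 against AL + NaIO3 (adjusted p = 0.287 by edgeR and 0.0284 by DESeq2), comparisons that share the AL + NaIO3 libraries. The interaction was 1.15 (adjusted p = 0.201 by edgeR and 0.00427 by DESeq2).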
